A study of Mus musculus with 6 samples.

Results

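The genes described here encode the core of myostatin, activin and TGF-beta signalling in skeletal muscle. They were the rows of the count table whose symbol was Mstn, Gdf11, Inhba, Tgfb1, Tgfb2, Fst, Acvr2a, Acvr2b, Smad3 or Smad7. Each symbol matched a single row, giving 10 of 49315 genes, and all 10 passed the filter on low counts that left 15847 genes for testing. RNA came from gastrocnemius muscle of male C57BL6J mice that received adeno-associated virus by injection at 5 months of age and were studied 5 months later. In 3 libraries the virus was AAV9-HSA-CAAHR, which encodes a constitutively active aryl hydrocarbon receptor (AHR), a mouse AHR whose ligand-binding domain was removed. In the other 3 libraries it was AAV9-HSA-GFP, which encodes a green fluorescent protein. Both groups therefore received virus, and muscle without virus was not analysed here. The human skeletal actin (HSA) promoter restricts each transgene to muscle fibres, so other cells of the tissue were not the intended site of expression. The study describes each group as muscles of 3 male mice. Each p-value sets the difference between groups against the variation between these libraries, estimated with information shared across genes.

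Ligands of this family are secreted as inactive precursors, released by proteases, and bind a type II receptor that recruits a type I receptor. Myostatin (Mstn), GDF11, activin A (Inhba) and the TGF-betas then lead to phosphorylation of SMAD2 and SMAD3, whereas bone morphogenetic proteins (BMPs) use other SMADs and induce the Id genes. Myostatin is made by muscle fibres and limits muscle size, follistatin (Fst) captures myostatin and activins outside the cell, and SMAD7 inhibits the receptors from inside.

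Gdf11 rose and was the single gene of the 10 that passed the test, at 4.56 times its GFP level. Mstn, whose fitted CAAHR level was 0.44 times that of GFP muscle, varied widely between libraries and did not pass. The other 8 genes had log2 fold changes between −0.32 and 0.25 and none passed. Of the 10 genes, 1 was called at an adjusted p under 0.05, against 7.6% of all genes tested. That gene was higher, where 3.04% of all genes were called higher, and 0 were lower, where 4.57% of all genes were called lower. It also exceeded a 2-fold change, as did 3.48% of all genes. The numbers of the 10 genes at an unadjusted p under 0.05 were 1 higher (Gdf11) and 3 lower (Mstn, Tgfb1 and Smad7), where 23.9% of all tested genes were under it, 11.3% higher and 12.6% lower. The libraries of the 2 groups did not overlap for 3 of the 10 genes (30%), which is the background share, since 29.9% of all tested genes were so separated. The median log2 fold change of the 10 genes was −0.28, compared with 0.01 over all tested genes.

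Library totals ranged from 43432994 to 58825752 counts. Ahr itself was at 9.97, 22.8 and 17.3 CPM (counts relative to the library total, here with library sizes adjusted by TMM, the trimmed mean of M values) in CAAHR replicates 31, 34 and 36, and at 2.47, 2.55 and 1.87 CPM in GFP replicates 42, 43 and 46. Because the transgene is a mouse sequence, its reads can count toward Ahr. Every library labelled CAAHR was above every library labelled GFP. The libraries also differed in fibre and immune transcripts. Summed CPM of 9 slow-fibre genes was 2783, 649 and 2518 in CAAHR replicates 31, 34 and 36 and 228, 333 and 461 in GFP replicates 42, 43 and 46. Of these genes, 9 of 9 had positive fold changes and 1 of 9 was called higher, where 3.04% of all genes were. Summed CPM of 7 B cell and plasma cell genes was 9.61 to 19.3 in CAAHR and 127 to 432 in GFP libraries. Of these 7 genes, 4 were called lower, where 4.57% of all genes were. The study reports a local immune response of muscle to AAV9-GFP. By quantitative PCR it found selected immune genes no lower in CAAHR muscle than in muscle without virus. Higher immune transcripts with GFP virus and lower ones with CAAHR cannot be told apart in these libraries. All values per library below are given in the order CAAHR 31, 34 and 36, then GFP 42, 43 and 46.

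The promoters of Mstn and Gdf11 are shown because these paralogous ligands had the largest opposite differences, and that of Ahrr, the gene of the AHR repressor, because it is a known AHR target that carries the AHR recognition core. Each run is the 250 bases before the RefSeq start site on GRCm38.p6, 5′ to 3′ on the gene's strand, at chr1:53061390-53061639 (plus strand) for Mstn, chr10:128891719-128891968 (minus strand) for Gdf11 and chr13:74292332-74292581 (minus strand) for Ahrr. Capitals mark E-boxes (CANNTG) in Mstn and Gdf11 and the AHR core GCGTG in Ahrr.
Mstn: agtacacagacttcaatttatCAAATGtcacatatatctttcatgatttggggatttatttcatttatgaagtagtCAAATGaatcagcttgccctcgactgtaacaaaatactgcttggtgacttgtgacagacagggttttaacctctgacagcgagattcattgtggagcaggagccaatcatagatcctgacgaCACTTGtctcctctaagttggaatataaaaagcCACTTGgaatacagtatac
Gdf11: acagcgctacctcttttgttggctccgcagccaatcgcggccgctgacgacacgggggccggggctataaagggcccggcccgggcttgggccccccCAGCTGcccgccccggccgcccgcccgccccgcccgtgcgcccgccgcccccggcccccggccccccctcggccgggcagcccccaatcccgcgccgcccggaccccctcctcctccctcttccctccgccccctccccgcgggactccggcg
Ahrr: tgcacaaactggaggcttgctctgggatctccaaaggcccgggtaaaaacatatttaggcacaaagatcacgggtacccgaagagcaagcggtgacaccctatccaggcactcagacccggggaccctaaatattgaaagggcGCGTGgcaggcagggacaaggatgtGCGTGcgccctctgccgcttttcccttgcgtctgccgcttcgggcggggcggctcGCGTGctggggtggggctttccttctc

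The Gdf11 window was 81.2% G and C and held 33 CpG dinucleotides, whereas the Mstn window was 38.4% G and C and held 3. GCGTG, searched on both strands, occurred 3 times in the Ahrr window and 0 times in the windows of Gdf11, Mstn and Tgfb2. It occurred once each in those of Inhba, Tgfb1, Acvr2a and Acvr2b and 2 times in that of Smad3. Among 32851 promoters of the same length, 28.2% held it. CANNTG occurred 4 times in the Mstn window, once in the Gdf11 window and in 66.2% of promoters. Promoters of 8 of the 10 genes were matched in RefSeq. Those of Fst and Smad7 were not matched.

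Gdf11 encodes a secreted ligand closely related to myostatin that acts through the same activin receptors. It lies on chromosome 10 from 128882295 to 128891718 (GRCm38, minus strand). Its level was 82.2, 139 and 84.0 CPM in CAAHR and 20.3, 29.5 and 17.3 CPM in GFP libraries. Every CAAHR library was above every GFP library, and the lowest CAAHR value was well clear of the highest GFP value. The means were 102 ± 32.5 CPM and 22.4 ± 6.39 CPM (SD, n = 3 each). The log2 fold change was 2.19 ± 0.29 (SE), with a 95% interval of 1.51 to 2.87, or 2.84-fold to 7.32-fold (adjusted p = 0.00748, Benjamini-Hochberg adjustment of the quasi-likelihood test in edgeR). By p-value it stood at position 313 of 15847 genes. Gdf11 was called in 13 of 13 alternative analyses, including each of the 6 that left out a library, where the log2 fold change was 1.89 to 2.44. Of its annotated neighbours, Sarnp and Cd63 alone were looked up, after values were seen, and neither passed. Their log2 fold changes were 0.02 ± 0.09 for Sarnp (adjusted p = 0.923) and −0.01 ± 0.11 for Cd63 (adjusted p = 0.968). Genes further along the chromosome were not looked up by position. These neighbours therefore do not show whether the rise was confined to Gdf11.

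Mstn, on chromosome 1 from 53061640 to 53068079 (plus strand), showed the opposite direction of difference. Its level was 39.6, 86.6 and 33.3 CPM in CAAHR and 141, 141 and 80.5 CPM in GFP libraries. CAAHR 31 and 36 lay below every GFP library, but CAAHR 34 lay above GFP 46, so the groups overlapped. The means were 53.2 ± 29.1 CPM and 121 ± 34.9 CPM (SD, n = 3 each). The log2 fold change was −1.18 ± 0.45, with a 95% interval of −2.31 to −0.05 and an adjusted p of 0.192 by the same test. A single library decided this call. Without CAAHR 34 the log2 fold change was −1.73 ± 0.27 and the adjusted p was 0.0118, and limma-voom with sample weights gave −1.54 ± 0.30 and 0.0181. Over all 6 analyses that left out a library, it ranged from −1.73 to −0.94 with adjusted p from 0.0118 to 0.406. The direction was the same in 13 of 13 alternatives, and 2 of them called it.

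**Figure D1:**
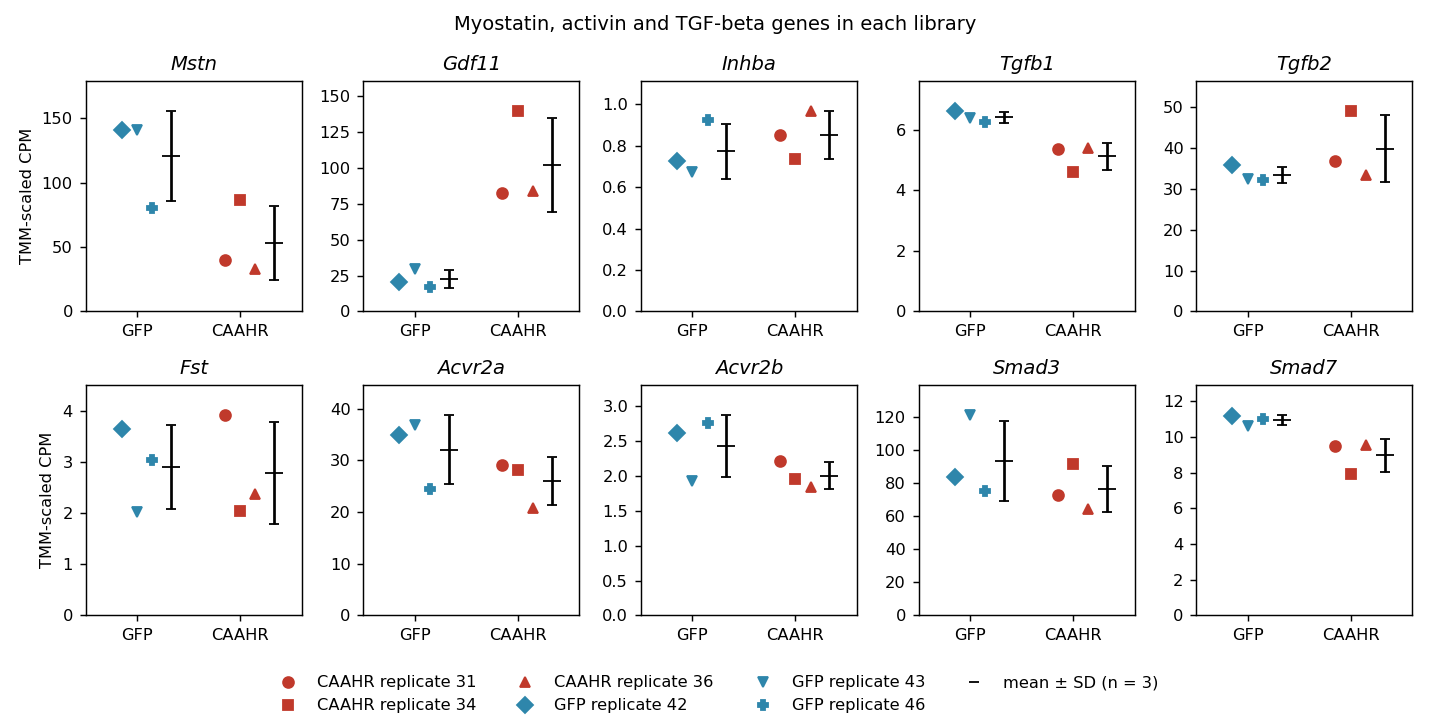
TMM-scaled CPM (vertical axes, starting at 0) of the 10 genes in each GFP (blue) and CAAHR (red) library, with a symbol for each library and the mean ± SD of 3 libraries as bars. Gdf11 separated the groups widely (17.3 to 29.5 against 82.2 to 139 CPM), Mstn did not (80.5 to 141 against 33.3 to 86.6 CPM), and Tgfb1 and Smad7 were slightly lower in every CAAHR library.

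The library with the highest Mstn among CAAHR samples, replicate 34, was also the one with the fewest slow-fibre transcripts. Myh7 encodes the myosin heavy chain of slow fibres and was at 877, 156 and 809 CPM in CAAHR and 37.5, 52.6 and 79.5 CPM in GFP libraries (log2 fold change 3.44, adjusted p = 0.0692). Myh4, the fast 2B myosin heavy chain, was at 57090, 86290 and 69720 CPM in CAAHR and 92790, 88870 and 82750 CPM in GFP libraries (log2 fold change −0.31, adjusted p = 0.325). Myh1, another fast myosin heavy chain, went the other way. It was at 6052, 2082 and 5324 CPM in CAAHR and 1327.5, 1311 and 4107 CPM in GFP libraries (log2 fold change 0.997, adjusted p = 0.427). Mstn was thus low in the 2 libraries with the most Myh7 and Myh1 and the least Myh4. Gdf11 did not follow that order, since CAAHR 34 had the highest Gdf11. For mice given these vectors the study took mitochondria from whole gastrocnemius muscles, and which portion gave the RNA of each library is not stated. The part of fibre composition in the Mstn difference was not tested.

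**Figure D2:**
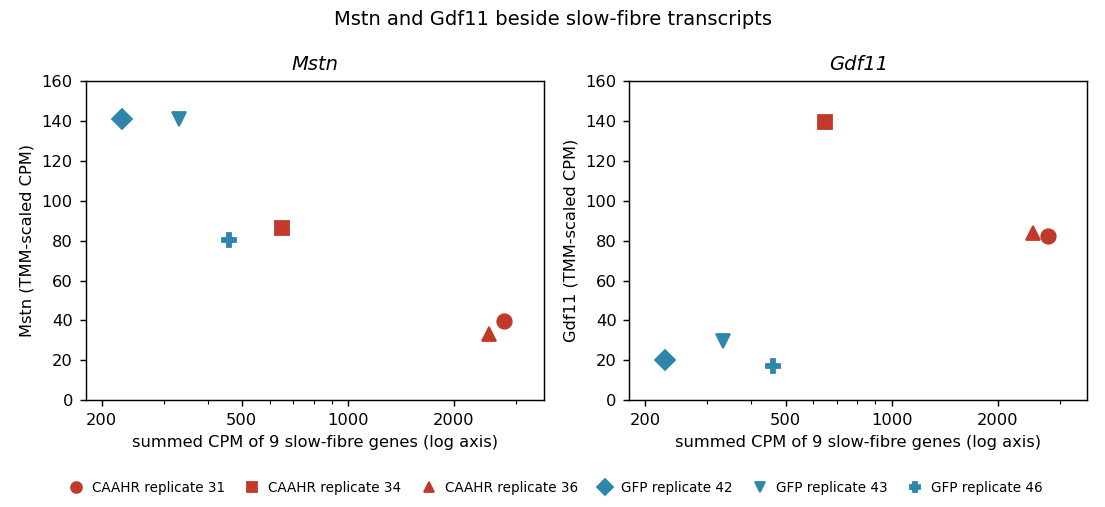
Mstn (left) and Gdf11 (right) in TMM-scaled CPM against the summed CPM of 9 slow-fibre genes on a log axis, with a point for each of the 3 CAAHR (red) and 3 GFP (blue) libraries. CAAHR 34, at 649 CPM of slow-fibre genes, had 86.6 CPM of Mstn, near GFP 46, but 139 CPM of Gdf11, above all other libraries.

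Per kilobase of exon, which allows levels of different genes to be set side by side, Mstn was at 52.0, 52.1 and 29.7 CPM per kb in GFP libraries and at 14.6, 32.0 and 12.3 in CAAHR libraries. Gdf11 was at 4.99, 7.27 and 4.26 CPM per kb in GFP and at 20.2, 34.3 and 20.7 in CAAHR libraries. Within each GFP library Mstn exceeded Gdf11, and within each CAAHR library Gdf11 exceeded Mstn. The ratio of Gdf11 to Mstn within a library, which does not depend on how libraries are scaled, was 1.38, 1.07 and 1.68 in CAAHR and 0.0959, 0.140 and 0.143 in GFP libraries. The mean ratios were 1.38 ± 0.303 and 0.126 ± 0.0263 (SD, n = 3 each). This ratio was chosen after its values were seen. A two-sided exact permutation test gave p = 0.1, the smallest that 3 libraries against 3 can give. Because the ratio was chosen that way, this p-value cannot count as support for a difference. CAAHR 34 was the highest CAAHR library for both ligands, and its ratio remained far above every GFP ratio. The summed level of both ligands was 34.9, 66.3 and 33.0 CPM per kb in CAAHR and 57.0, 59.4 and 34 in GFP libraries, and these overlapped (exact permutation p = 0.9). The longest identical run between the transcripts of the 2 genes was 12 bases, which is shorter than a read.

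**Figure D3:**
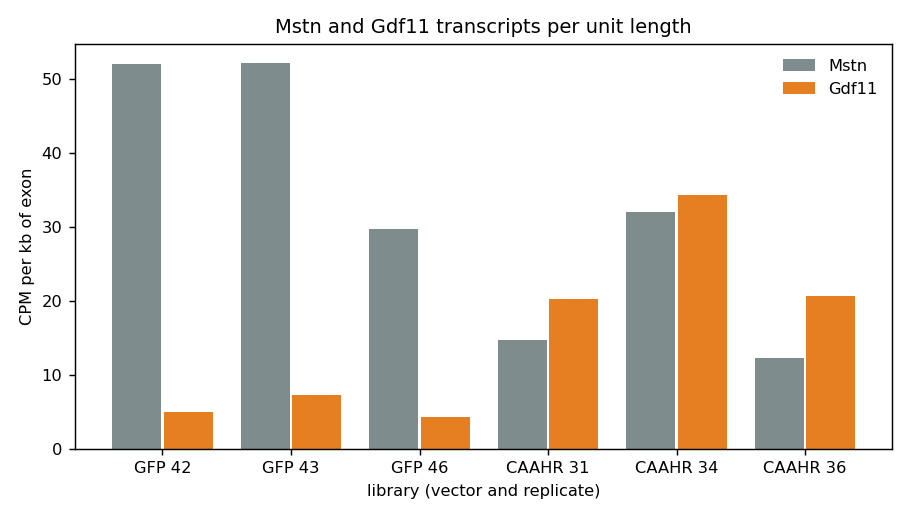
TMM-scaled CPM per kilobase of exon (bars from 0) for Mstn (grey) and Gdf11 (orange) in each of the 6 libraries. The Mstn bar is the taller in the 3 GFP libraries and the Gdf11 bar is the taller in the 3 CAAHR libraries, at 20.2 against 14.6, 34.3 against 32.0 and 20.7 against 12.3.

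Tgfb1, on chromosome 7 from 25687002 to 25705077 (plus strand), encodes the TGF-beta most associated with fibrosis and is made largely by immune and stromal cells. Its level was 5.36, 4.60 and 5.40 CPM in CAAHR and 6.61, 6.37 and 6.25 CPM in GFP libraries. All CAAHR libraries lay below all GFP libraries, yet the difference was small, with a log2 fold change of −0.32 ± 0.13 (95% interval −0.62 to −0.03), and did not pass (adjusted p = 0.166). Macrophage transcripts were also lower in CAAHR libraries. Summed CPM of 9 macrophage genes was 26.9 to 46.1 in CAAHR and 53.8 to 118 in GFP libraries, with 0 of 9 at 0 in any library, 0 of 9 fold changes positive, 7 at an unadjusted p under 0.05 and 0 called by edgeR (6 by DESeq2 and 1 by limma-voom, all lower). Over all tested genes, 12.6% were lower at an unadjusted p under 0.05, DESeq2 called 12.1% and limma-voom 9.22%. In whole muscle, fewer macrophages and less RNA per macrophage cannot be told apart. Nor can a fall with CAAHR be told apart from a rise with GFP virus. Stromal transcripts overlapped between the groups. Summed CPM of 8 fibroblast and fibro-adipogenic progenitor genes was 218.5 to 354.5 in CAAHR and 259.7 to 348.2 in GFP libraries, with 0 called. Sums for endothelial cells and for smooth muscle and pericytes overlapped too. The part of macrophages or stromal cells in the Tgfb1 difference was not tested.

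Tgfb2, on chromosome 1 from 186622792 to 186705989 (minus strand), was at 36.9, 49.0 and 33.3 CPM in CAAHR and 35.7, 32.3 and 32.2 CPM in GFP libraries. CAAHR 34 alone stood high and the groups overlapped. The log2 fold change was 0.25 ± 0.14 (95% interval −0.06 to 0.56, adjusted p = 0.314). Inhba, on chromosome 13 from 16011851 to 16031621 (plus strand), encodes the subunit of activin A and was sparse, with 28 to 59 counts a library. It was at 0.850, 0.735 and 0.968 CPM in CAAHR and 0.725, 0.673 and 0.925 CPM in GFP libraries, which overlapped. Its log2 fold change was 0.13 ± 0.27, and the interval of −0.48 to 0.75 leaves changes of moderate size in either direction undetectable at this depth.

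Fst, on chromosome 13 from 114452290 to 114458951 (minus strand), encodes follistatin, the extracellular antagonist of myostatin, GDF11 and activins. It was at 3.92, 2.05 and 2.38 CPM in CAAHR and 3.65, 2.02 and 3.04 CPM in GFP libraries. The highest and lowest values of each group were alike. The log2 fold change was −0.07 ± 0.29 (95% interval −0.73 to 0.59, adjusted p = 0.920), and its sign turned in 4 of 13 alternatives. Fst shares 115 exonic bases with a gene on the opposite strand (Gm47040), so its counts carry some uncertainty where strand is not known.

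The type II receptors to which myostatin, GDF11 and activins bind were slightly lower on average. Acvr2a, on chromosome 2 from 48814109 to 48903269 (plus strand), was at 29.0, 28.2 and 20.7 CPM in CAAHR and 35.0, 36.9 and 24.4 CPM in GFP libraries, with a log2 fold change of −0.30 ± 0.18 (95% interval −0.72 to 0.11). Acvr2b, on chromosome 9 from 119402118 to 119434995 (plus strand), was at 2.21, 1.96 and 1.84 CPM in CAAHR and 2.61, 1.92 and 2.76 CPM in GFP libraries, with a log2 fold change of −0.28 ± 0.20 (95% interval −0.74 to 0.17). Both receptors overlapped between the groups and neither passed (adjusted p = 0.359 for Acvr2a and 0.442 for Acvr2b). Acvr2a shares 446 exonic bases with Orc4 on the opposite strand.

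Smad3, on chromosome 9 from 63646767 to 63757994 (minus strand), encodes the transcription factor activated by these ligands and was at 72.8, 91.9 and 64.7 CPM in CAAHR and 83.8, 121 and 75.4 CPM in GFP libraries. The groups overlapped, with GFP 43 the highest, and the log2 fold change was −0.29 ± 0.20 (95% interval −0.74 to 0.16, adjusted p = 0.424). Smad7, the inhibitory SMAD that the pathway itself induces, lies on chromosome 18. It was at 9.49, 7.91 and 9.55 CPM in CAAHR and 11.2, 10.6 and 11 CPM in GFP libraries. As with Tgfb1, every CAAHR library was below every GFP library by a small margin, and the log2 fold change of −0.29 ± 0.12 (95% interval −0.55 to −0.03) did not pass (adjusted p = 0.171).

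**Figure D4:**
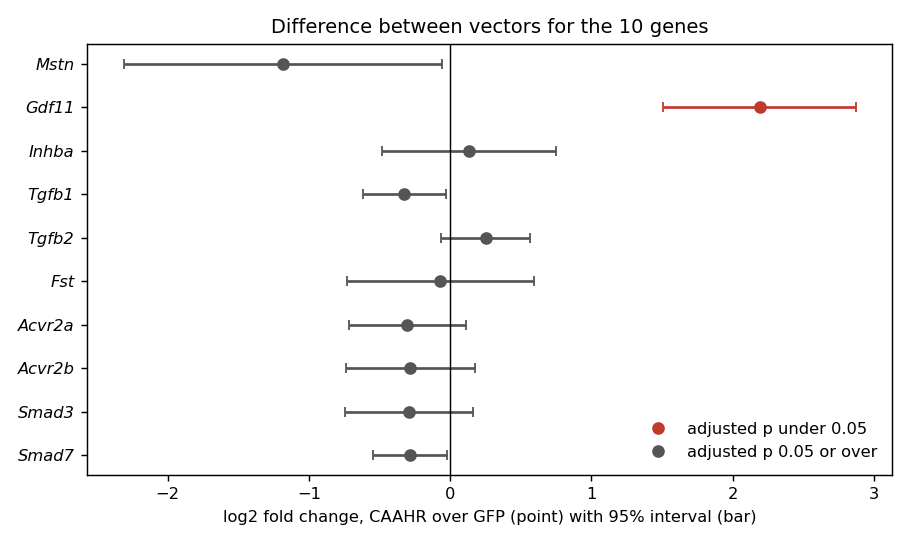
log2 fold change of CAAHR over GFP with its 95% interval for the 10 genes, by role, with genes at an adjusted p under 0.05 in red. The interval of Gdf11 (1.51 to 2.87) lies far from 0, those of Mstn, Tgfb1 and Smad7 end just below 0 without passing adjustment, and those of the other 6 genes include 0.

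In GFP muscle the order of levels per kilobase was Mstn (44.6 CPM per kb), Smad3 (16.9), Tgfb2 (5.77), Acvr2a (5.64), Gdf11 (5.51), Smad7 (2.42), Tgfb1 (1.27), Fst (0.632), Acvr2b (0.619) and Inhba (0.121). Tgfb2, Acvr2a and Gdf11 overlapped between libraries, as did Fst and Acvr2b, while the other neighbours in the order did not overlap. In CAAHR muscle Gdf11 (25.1 CPM per kb) came first, ahead of Mstn (19.7) and Smad3 (13.8). Gdf11 and Mstn overlapped between libraries there, as did Mstn and Smad3, and Fst and Acvr2b. Tgfb2 (6.86), Acvr2a (4.57), Smad7 (1.99), Tgfb1 (1.01), Fst (0.606), Acvr2b (0.510) and Inhba (0.133) followed in the same order as in GFP muscle.

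Among 12240 other genes with a mean of at least 1 CPM, those whose level followed Gdf11 most closely across the 6 libraries were Kcnf1, Zim1 and Gm15337, by the root-mean-square difference of centred log2 CPM (0.12, 0.18 and 0.20). For Mstn they were Nr4a2, Gadl1 and Enox2 (0.20, 0.23 and 0.27). All 6 libraries enter this measure, so the group difference is part of it.

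A further 121 genes of the same pathways, listed by role, were examined, of which 104 could be tested. Of these, 1 was called higher and 8 lower, so that 8.65% were called, near the 7.6% of all genes. Their median log2 fold change was −0.07. No gene was called among 13 other ligands, 9 activating proteases and integrins, 7 type I receptors, 6 other Smads and 13 TGF-beta and activin target genes by the edgeR test. Of these 48 genes, 10 were at an unadjusted p under 0.05, DESeq2 called 6 (1 higher and 5 lower) and limma-voom called 2, both lower. Over all tested genes the unadjusted share was 23.9%, DESeq2 called 12.1% and limma-voom 9.22%. Of the TGF-beta and activin target genes, 3 were lower at an unadjusted p under 0.05 (12.6% of all genes), 0 were higher, and the median log2 fold change was −0.18. DESeq2 called 21 of the 104 genes, 3 higher and 18 lower, against 12.1% of all genes.

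The type I receptors that partner with Acvr2a and Acvr2b did not pass. Acvr1b, the receptor for myostatin and activins known as ALK4, was at 98.2 ± 22.7 CPM in CAAHR and 63.1 ± 7.34 CPM in GFP libraries, with no overlap, a log2 fold change of 0.64 ± 0.17 and an adjusted p of 0.0508. It was called in 4 of 13 alternatives. Acvr1c (ALK7) was near the limit of detection, at 0.144 and 0.602 CPM (log2 fold change −2.06 ± 0.64, adjusted p = 0.0846). Acvr1c is known as a receptor of fat cells, and of 5 adipocyte genes 0 had a positive fold change, with none at 0 in any library. Of the 5, 2 were called lower, where 4.57% of all genes were, and the median log2 fold change was −2.09. Their summed CPM was 85.7 to 134 in CAAHR and 103 to 212 in GFP libraries. Most of this sum was Fabp4, which differed little (104 against 106 CPM, log2 fold change −0.03). The part of fat cells in the Acvr1c difference was not tested. The TGF-beta receptors Tgfbr1 and Tgfbr2 had log2 fold changes of 0.03 ± 0.14 and 0.01 ± 0.13, and Smad2 and Smad4, the partners of Smad3, had −0.01 ± 0.14 and 0.01 ± 0.09. For these 4 genes the adjusted p was 0.922 or above.

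Tgfbr3, which encodes betaglycan, a co-receptor that presents TGF-beta2 and lets inhibin antagonise activin receptors, was the single other pathway gene called higher. It rose from 29.3 ± 3.99 to 57.8 ± 9.54 CPM (log2 fold change 0.98 ± 0.14, adjusted p = 0.00391). Of 16 intracellular regulators, 2 (12.5%) fell, where 4.57% of all genes were called lower. Pmepa1, a TGF-beta-induced inhibitor of SMAD2 and SMAD3 activation, fell by 0.75 ± 0.12 on the log2 scale, from 36.9 ± 5.38 to 21.96 ± 1.76 CPM (adjusted p = 0.00674). Nedd4l, a ubiquitin ligase that limits activated SMAD2 and SMAD3, fell by 0.78 ± 0.13, from 27.4 ± 0.908 to 15.9 ± 2.75 CPM (adjusted p = 0.00722). These 3 genes were called in 13 of 13 alternatives.

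Of 7 tested BMP target genes, 3 fell, where 4.57% of all genes were called lower. The log2 fold changes were −0.73 ± 0.14 for Id3 (12.7 against 21 CPM, adjusted p = 0.0139), −1.13 ± 0.27 for Id2 (1.31 against 2.86 CPM, adjusted p = 0.0330) and −0.91 ± 0.24 for Id4 (0.819 against 1.54 CPM, adjusted p = 0.0475). Id1, the best-known target of BMP signalling, had −0.51 ± 0.16 and an adjusted p of 0.0842. The lower values were those of Id genes. The other tested BMP targets, Atoh8, Fbxo30 and Msx1, had 0.46 ± 0.26, 0.04 ± 0.15 and −0.03 ± 0.25, and none passed (adjusted p 0.31 or above). Of 24 tested extracellular inhibitors and carriers, 3 (12.5%) fell against the same 4.57%, namely Nrros and Lrrc32, which hold latent TGF-beta on the cell surface, and Nog, the BMP antagonist noggin. Their log2 fold changes were −0.93 ± 0.20 (adjusted p = 0.0213), −0.63 ± 0.16 (adjusted p = 0.0470) and −0.66 ± 0.16 (adjusted p = 0.0415). These 6 calls were often lost with 5 libraries, whereas the direction never turned. Of the 6 analyses leaving out a library, Id3 was called in 3, Id2 in 2, Nrros and Nog in 1 each, and Id4 and Lrrc32 in 0. Over these analyses the log2 fold change was −0.85 to −0.65 for Id3, −1.30 to −0.85 for Id2, −1.01 to −0.81 for Id4, −1.001 to −0.847 for Nrros, −0.76 to −0.58 for Nog and −0.77 to −0.51 for Lrrc32, and calls over all genes also fell, to between 530 and 849 in 5 of the 6. Id4, Nog and Lrrc32 also lost the call with scaling by library size alone. Nrros is expressed mainly by macrophages and microglia, and the macrophage sums given beside Tgfb1 were lower too. Their part in the Nrros difference was not tested.

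**Figure D5:**
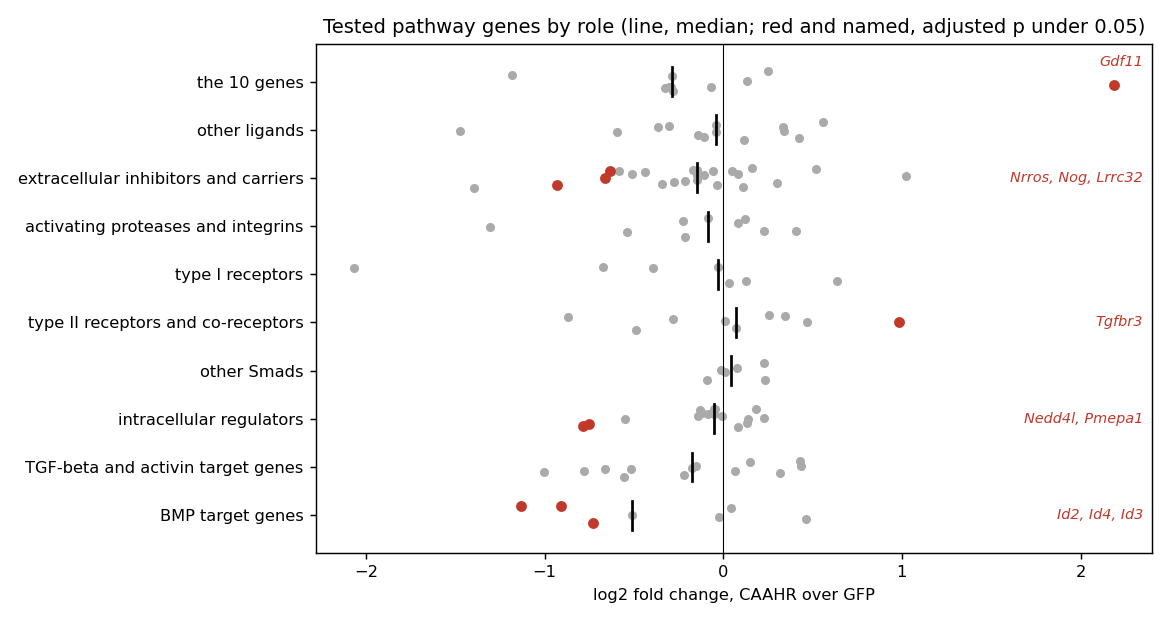
log2 fold change of CAAHR over GFP for the 10 genes and the 104 other tested pathway genes, by role, with the median of each role as a line and genes at an adjusted p under 0.05 in red and named at the right. Gdf11 (2.19) and Tgfbr3 (0.98) are the called genes to the right of 0, and 8 called genes lie to its left, among them Pmepa1 (−0.75) and Nedd4l (−0.78).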

How the data were processed

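Poly(A) RNA of gastrocnemius muscle was sequenced as paired ends. The authors trimmed reads with Trimmomatic 0.36, aligned them to mouse GRCm38 with STAR 2.5.2b and counted uniquely assigned exon reads per gene with featureCounts. The deposited values were raw counts, neither normalised nor pooled. Whether libraries were stranded is not given in the sources used here. Groups and replicate numbers were taken from sample titles.

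Tests were run on these counts with edgeR 4.0.16 under R 4.3.3 (filterByExpr, TMM scaling, robust quasi-likelihood F test, no covariate). Benjamini-Hochberg adjustment covered the 15847 genes that passed the filter, and an adjusted p under 0.05 was called. Standard errors came from the F statistic, and intervals are at 95%. The steps were tested on simulated data, and the outcome is not reported here. Alternatives were other scalings and filters, DESeq2 1.42.0, limma-voom (limma 3.58.1) and leaving out each library. Every pair of libraries within a group differed far beyond counting error (lowest chi-square over its degrees of freedom, 23.7), and each was kept as a replicate.

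Positions and exon lengths were from GENCODE M21, which held 48970 of 49315 identifiers, and promoters from RefSeq on GRCm38.p6. Fst, Acvr2a and Tgfb2 overlap exons of genes on the opposite strand (115, 446 and 124 bases). The 10 genes and the lists of pathway and cell type genes were chosen with earlier results of these data known. Genes named were the 10 genes, their direct receptor and Smad partners (Acvr1b, Acvr1c, Tgfbr1, Tgfbr2, Smad2, Smad4), called genes of each pathway list (at most 3 in each direction, by smallest p), and the 3 genes most like Mstn and Gdf11. Sarnp, Cd63, Ahrr, Id1, Atoh8, Fbxo30, Msx1, Myh1 and Fabp4 were added after values were seen.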

Additional observations from a re-analysis of the deposited data

How the results depend on the processing

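No paired analysis was possible because CAAHR and GFP libraries carry different replicate numbers (31, 34 and 36 against 42, 43 and 46). Each of the 10 genes was recomputed under 13 alternatives. Of these 130 values, 124 kept their direction and their side of the threshold, 2 gained a call (both Mstn) and 4 turned in sign (all Fst). Mstn was called with limma-voom (log2 fold change −1.54) and without CAAHR 34, and leaving out a library moved it from −1.73 to −0.94. Fst turned to 0.016 with library size only and, over the left-out libraries, ranged from −0.40 to 0.13, with positive values without CAAHR 34, CAAHR 36 or GFP 42. The causes were not tested. The count of called members was thus 2 with limma-voom, also over 2-fold, and 1 to 2 when a library was left out.

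Over all genes, 2470 were called with no filter on low counts and 1923 with DESeq2, against 1205, and 530 (without CAAHR 36) to 1727 (without CAAHR 34) when a library was left out. Over 2-fold, 1008 were called with no filter, against 551, and 335 to 740 when a library was left out. Of the other pathway genes, 15 were called with upper quartile scaling, 28 with no filter and 21 with DESeq2, against 9, and 3 (without GFP 46) to 14 (without CAAHR 34) when a library was left out. With library size only, 876 genes were called higher and 600 lower, against 481 and 724, and with upper quartile scaling 358 and 990. The median log2 fold change of the 10 genes was −0.20 and −0.36 under these scalings, and that of all genes 0.09 and −0.06. With 3 libraries a group, Inhba, Fst and Acvr2b, at few CPM, were measured with the least depth.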
